A study of Mus musculus with 6 samples.

Results

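The genes described here encode the AP-1 transcription factors and 2 factors that are induced with them. They were chosen by gene symbol from the deposited transcript table. Fosl2, Fosl1, Fos and Fosb make up the Fos family, Junb, Jund and Jun make up the Jun family, and Atf3 and Egr1 complete the set. All 9 symbols were found among the 29510 genes of the table, with 19 of its 85882 transcripts. The samples were mouse primary chondrocytes, the cells that build cartilage, cultured without being made to differentiate. The 3 libraries called cKO here carried floxed Nf2 alleles together with Prx1-Cre (Nf2f/f;Prx1-CRE), a Cre that recombines in the mesenchyme of the limb bud, and the 3 control libraries carried the floxed alleles without it (Nf2f/f). All 6 libraries therefore share the floxed alleles, and no control carried Cre alone. The sources used here give neither the age of the animals nor whether replicates are separate animals or cultures. The p-values therefore reflect library-to-library spread, part of which may be technical.

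AP-1 is a dimer of basic leucine zipper proteins. Jun proteins pair with each other or with Fos proteins, while Fos proteins need a Jun partner to bind DNA. Fos, Fosb, Jun, Junb, Atf3 and Egr1 are known as immediate early genes, which serum, growth factors, stretch or stress induce within minutes through the ERK, JNK and p38 kinases, whereas Fosl1, Fosl2 and Jund are known for slower or steadier expression. In enhancers of many cell types AP-1 is known to bind beside TEAD, the DNA-binding partner of YAP and TAZ, which Hippo signalling downstream of merlin, the Nf2 product, holds back. RNA levels do not report the phosphorylation by which Fos and Jun proteins are also controlled.

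Proximal promoters show how these genes differ in the letters near their starts. RefSeq promoter windows on GRCm38.p6, from 250 bases before to 50 bases after the start, were at hand for 7 of the 9 genes, all but Fosl1 and Egr1. The 100 bases before the RefSeq start are shown for 3 of them as examples, 5′ to 3′ on the gene's strand. Each holds a match to an element known to bind a factor of this group or a partner of it. Atf3 and Fosl2 also hold such a match in that stretch and are not shown. Fos is at chr12:85473790-85473889 on the plus strand, Jun at chr4:95052223-95052322 on the minus strand and Fosb at chr7:19310046-19310145 on the minus strand. Capitals mark TGACGT, the start of a cyclic AMP response element, and TATAAA in Fos, TGACATCA, a variant of the AP-1 and cyclic AMP elements, in Jun, and GCGGGGGCG, a form of the EGR1 site, in Fosb.
Fos: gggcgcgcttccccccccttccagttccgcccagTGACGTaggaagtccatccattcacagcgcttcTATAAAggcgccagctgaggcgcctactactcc
Jun: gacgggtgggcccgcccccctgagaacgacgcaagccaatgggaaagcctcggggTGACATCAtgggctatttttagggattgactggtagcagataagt
Fosb: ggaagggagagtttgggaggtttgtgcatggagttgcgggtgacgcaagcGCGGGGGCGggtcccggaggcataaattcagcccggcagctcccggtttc

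The match in Fos spans bases 66 to 61 before the start, with TATAAA at bases 33 to 28, and the match in Jun spans bases 45 to 38. The GCGGGGGCG matches lie 50 to 42 bases before the start of Fosb and, not shown, 79 to 71 before the RefSeq start of Fosl2, which GENCODE M21 places inside the first exon of its main transcript. Both strands of the 300-base windows were searched. TGACGT was also found in the Atf3 window, and TATAAA in the Junb window at the RefSeq start itself. GENCODE M21 starts the Junb transcript farther downstream, at base 84978718 of chromosome 8. Among all 32817 promoter windows of this length, 7.51% held TGACGT, 13.6% TATAAA, 3.62% TGACATCA and 2.91% GCGGGGGCG. The consensus AP-1 site TGACTCA (5.20% of all windows), the full element TGACGTCA, which contains TGACGT (1.79%), the CArG box of SRF (1.63%) and GGAATG, the TEAD site (14.7%), had no match in the 7 windows. Sites farther than 250 bases before the start, or in Fosl1 and Egr1, were not searched, so an absence covers these windows alone. These matches describe letters only.

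No difference between cKO and control in the RNA level of these 9 genes passed the test. FPKM, fragments scaled by transcript length and library total, were summed per gene and compared on log2(FPKM + 0.5), a scale that understates the change of low genes such as Fosb. All 9 genes passed the filter of a mean of 0.5 FPKM over the 6 libraries, Fosb just inside it at 0.513 FPKM. By limma with Benjamini-Hochberg adjustment over all 14080 genes tested, 0 of the 9 passed an adjusted p of 0.05, and 0 had an unadjusted p under 0.05. Across all genes tested 12.2% passed, 7.6% higher and 4.57% lower in cKO, and 29.6% had an unadjusted p under 0.05. In so small a set, a count of 0 past the adjusted p is near the share of 12.2% and is no result about these genes in particular. The count of 0 at an unadjusted p lies below its share of 29.6%, and that gap was not tested. The 9 log2 changes were all above 0, with a median of 0.11 against 0.05 over all genes tested, of which 59.5% were above 0. With median-of-ratios scaling the median of the 9 was 0.06 against 0.01 over all genes, with Jun below 0, and with quantile normalization it was 0.04 against 0.02, with Jun and Egr1 below 0. The 95% confidence intervals, not adjusted for the number of genes, bounded the size of change. On the log2(FPKM + 0.5) scale every interval lay inside a 2-fold change, the widest bounds being a fold of 0.839 for Atf3 and of 1.56 for Fosb. For Fosb this is no bound on the fold of its FPKM, since with a pseudocount of 0.1 its log2 change was 0.36 and its interval reached a fold of 2.13. Their standard errors ran between 0.061 for Junb and 0.19 for Fosb, against a median of 0.10 over all genes tested.

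**Figure D1:**
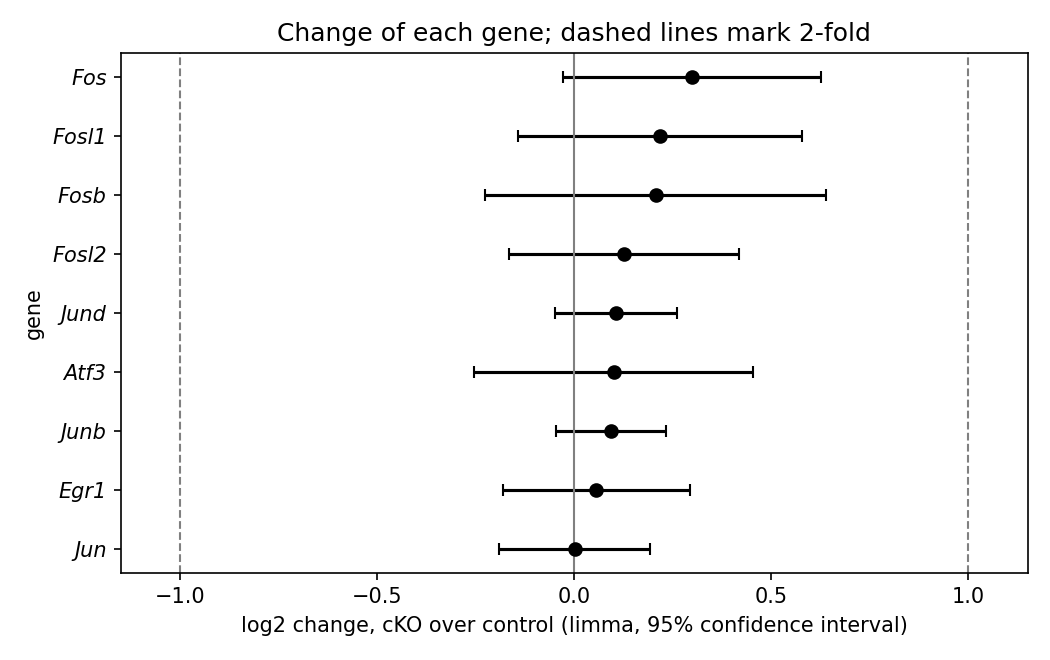
Log2 change of each gene, cKO over control (point), with its 95% confidence interval from limma (bar), n = 3 libraries per group. All 9 points lie at or above 0, every interval includes 0, and none reaches the dashed lines at 2-fold.

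Chondrocyte identity and the state of the libraries set the frame for these values. The 14 chondrocyte markers, among them Col2a1, Acan and Sox9, were all present and all passed limma as lower in cKO, their FPKM summing to between 2404 and 2998 in cKO libraries and between 5410 and 6675 in control libraries. In bulk RNA, fewer cells of a type and less RNA per cell cannot be told apart. All 6 endothelial markers in the table and all 6 erythroid markers lay under the filter, the erythroid ones with sums wholly apart, 0.019 to 0.066 FPKM in cKO and 0.523 to 2.55 FPKM in control. Of the 8 macrophage markers Ptprc, Adgre1, Csf1r, Aif1 and Itgam lay under the filter, and of the 3 tested Mrc1 alone passed, as higher in cKO (log2 change 1.22, limma adjusted p = 0.00273). Lyz2 and Cd68 had log2 changes of -0.50 and -0.08 (limma adjusted p = 0.598 and 0.809). The sum of the macrophage list was 8.49 to 12.9 FPKM in cKO and 5.80 to 16.1 FPKM in control. Of the 7 skeletal muscle markers 2 were tested and both rose, while Myod1, Ckm, Myh3 and Ttn lay under the filter, the list's sum being 8.84 to 10.998 FPKM in cKO and 4.45 to 5.82 FPKM in control. Of 9 fibroblast and tendon markers 3 fell and 0 rose, with sums of 716.9 to 1166 FPKM in cKO and 1197 to 1218 FPKM in control. The osteoblast markers summed to 57.5 to 240.6 FPKM in cKO and 44.6 to 66.6 FPKM in control, with 0 of 4 tested past limma. The epidermal ones, with Krt5, Krt1, Epcam and Cdh1 under the filter, summed to 3.85 to 4.99 FPKM in cKO and 3.88 to 4.59 FPKM in control. Of the 2 tested, Trp63 rose (log2 change 0.67, limma adjusted p = 0.0254), while Krt10 went the other way and did not pass (-0.52, 0.0568). The part of all these markers in the values of the AP-1 genes was not tested. Nf2 itself stood at 17.5, 15.6 and 18.1 FPKM in cKO 1 to 3 and at 16.7, 16.6 and 14.1 FPKM in control 1 to 3 (limma adjusted p = 0.463), a sum over transcripts that also takes reads outside a deleted part and so does not check the deletion. Xist, an X-linked transcript of female cells, was near 0 in cKO 3 and at 0.525 FPKM in control 2, against 41.6 to 53.9 FPKM in the other 4 libraries, so the libraries of a group differ in it. With the Xist level as a covariate 0 of the 9 genes passed.

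In the Fos family, Fosl2, whose loss in mice is known to disturb chondrocyte maturation in the growth plate, was the most abundant gene. Fosl2 stood at 28.3, 39.8 and 28.2 FPKM in cKO 1 to 3, against 28.4, 30.1 and 28.4 FPKM in control 1 to 3. The control libraries lie close together, cKO 1 and cKO 3 lie just under them, and cKO 2 stands above all others. Fosl2 had a log2 change of 0.13 (SE 0.13, limma adjusted p = 0.558), with a 95% interval of -0.17 to 0.42, and without cKO 2 it was -0.04. Fosl2 had 3 transcripts in the table, of which the coding ENSMUST00000031017 (4 exons) held between 98.1 and 99.3% of the gene's FPKM in every library.

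Fosl1 encodes Fra-1, known in mice as a factor that raises bone mass when overproduced. It stood at 9.97, 12.4 and 8.97 FPKM in cKO 1 to 3, against 7.47, 8.35 and 10.995 FPKM in control 1 to 3. The ranges overlap, with control 3 above cKO 1 and cKO 3. Its log2 change was 0.22 (SE 0.16, limma adjusted p = 0.401), with an interval of -0.14 to 0.58. The coding transcript ENSMUST00000025850 (4 exons) averaged 9.73 ± 1.35 FPKM in cKO and 8.44 ± 1.64 FPKM in control (SD, n = 3). A transcript with a retained intron, ENSMUST00000235958, averaged 0.666 ± 0.403 FPKM in cKO and 0.402 ± 0.319 FPKM in control, or between 1.22 and 8.91% of the gene over the 6 libraries. Fosl1 overlaps Ccdc85b, a coding gene on the opposite strand with a mean of 8.06 FPKM, over 1163 of the 2033 exon bases of Fosl1. The kit marks strand, but the sources used here do not say whether strand was used when levels were estimated, so reads from this stretch could have been assigned to either gene.

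Fos, the founding immediate early gene of the family, was low. Fos stood at 2.61, 2.98 and 2.57 FPKM in cKO 1 to 3, against 2.33, 1.67 and 2.42 FPKM in control 1 to 3. The lowest cKO library lies above the highest control, by a small margin, and control 2 is the lowest of all. Its log2 change was 0.30 (SE 0.14), the largest of the 9 in this fit, and did not pass (limma adjusted p = 0.205, unadjusted p = 0.0681, interval -0.03 to 0.63). Without control 2 it was 0.16. In 22.8% of all genes tested, the cKO libraries likewise lay above every control, and in 12.3% below. The main transcript ENSMUST00000021674 (4 exons) averaged 2.67 ± 0.210 FPKM in cKO and 2.004 ± 0.317 FPKM in control (SD, n = 3). The authors' deposited table gives it a fold of 1.33 with p = 0.0339 and q = 0.369.

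Fosb was the lowest of the set and the closest to the filter. It stood at 0.616, 0.606 and 0.519 FPKM in cKO 1 to 3, against 0.406, 0.624 and 0.305 FPKM in control 1 to 3. Control 2 lies above all cKO libraries, and the other controls lie below them. The log2 change was 0.21 (SE 0.19, limma adjusted p = 0.512). How the FPKM were divided between transcripts mattered here. The coding transcript ENSMUST00000003640 (4 exons), singled out after its values were seen, lay under the filter at 0.568, 0.586 and 0.514 FPKM in cKO 1 to 3 and 0.386, 0.394 and 0.266 FPKM in control 1 to 3, with cKO above every control. Among transcripts past the filter, a set without this one, 13.3% had cKO above every control. The share among transcripts under the filter was not taken. ENSMUST00000003640 held 63.2% of the gene in control 2, where 4 further transcripts held the rest, and at most 99.0% in any library. Without a filter its log2 change was 0.32 (limma adjusted p = 0.694). For this transcript the authors' deposited table has a fold of 1.59 with p = 0.0147 and q = 0.217, the lowest q of the 19 transcripts.

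In the Jun family the 3 genes, each with 1 transcript of a single exon, were close in level and varied little. Junb, a Jun protein known to oppose Jun at many promoters and to be needed for normal bone growth in mice, stood at 32.8, 33.6 and 33.96 FPKM in cKO 1 to 3, against 29.7, 31.7 and 32.6 FPKM in control 1 to 3. The cKO libraries all lie above the controls, as in 22.8% of all genes tested, with cKO 1 and control 3 only just apart. The log2 change was 0.09 (SE 0.061, limma adjusted p = 0.351), with an interval of -0.05 to 0.23. In GENCODE M21 the Junb gene overlaps Prdx2, an opposite-strand gene with a mean of 117 FPKM, over 173 of its 2301 exon bases. The measured Junb transcript has 1809 bases, and whether the overlap falls inside it was not examined.

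Jund, the family member known for steady expression in resting cells, stood at 28.8, 30.9 and 32.5 FPKM in cKO 1 to 3, against 28.98, 27.2 and 29.2 FPKM in control 1 to 3. Only cKO 1 lies inside the control range. Jund had a log2 change of 0.11 (SE 0.068, limma adjusted p = 0.343), with an interval of -0.05 to 0.26.

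Jun, which the JNK kinases phosphorylate, stood at 22.5, 24.1 and 19.8 FPKM in cKO 1 to 3, against 21.3, 21.7 and 23.2 FPKM in control 1 to 3. The highest and the lowest library are both cKO, and the control libraries lie between them. The log2 change was 0.00 (SE 0.084, limma adjusted p = 0.996), with an interval of -0.19 to 0.19, so a change beyond 1.14-fold up lay outside it. The sign of this value turned negative with median-of-ratios scaling, with quantile normalization, on a TPM scale and without control 1, control 2, cKO 1 or cKO 2. Junos, an antisense transcript at 2.66 FPKM, overlaps 232 of the 3189 exon bases of Jun.

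Atf3, a stress-induced factor that pairs with Jun proteins and often represses, stood at 1.96, 2.24 and 2.503 FPKM in cKO 1 to 3, against 1.64, 2.52 and 2.04 FPKM in control 1 to 3. The ranges overlap throughout. Atf3 had a log2 change of 0.10 (SE 0.15, limma adjusted p = 0.714), with an interval of -0.25 to 0.45, and without control 1 it was -0.02. A single transcript of 4 exons carried the gene.

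Egr1 is a zinc finger factor, not a leucine zipper protein, and is induced by serum response factor beside Fos. It stood at 14.9, 14.3 and 11.9 FPKM in cKO 1 to 3, against 12.2, 12.8 and 14.4 FPKM in control 1 to 3. The lowest library, cKO 3, and the highest, cKO 1, are both cKO. The log2 change was 0.06 (SE 0.103, limma adjusted p = 0.764), with an interval of -0.18 to 0.29, and its sign turned with quantile normalization or without cKO 1.

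**Figure D2:**
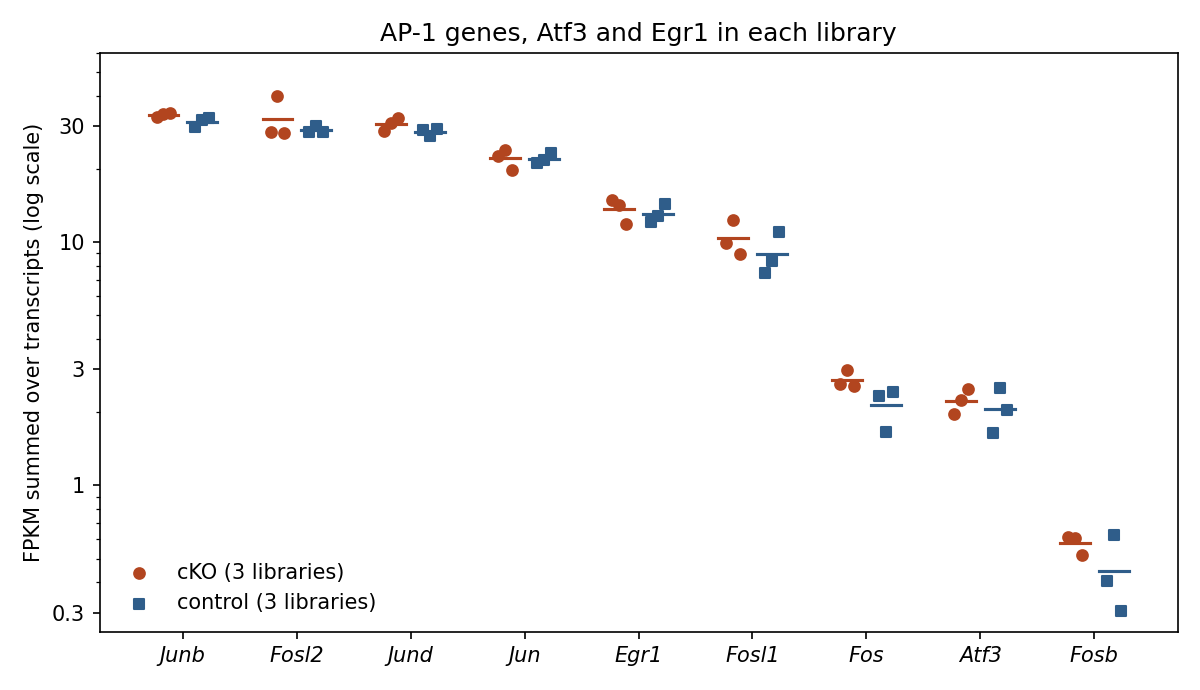
FPKM summed over transcripts (log scale) of each gene in the 3 cKO libraries (circles) and the 3 control libraries (squares), with group means as bars, genes ordered by their mean over all libraries. Junb, Fosl2 and Jund lie near 30 FPKM and Fosb lies near 0.5 FPKM. The groups are apart for Fos and Junb alone, with cKO above control, as in 22.8% of all genes tested.

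At the level of transcripts, 9 of the 19 reached a mean of 0.5 FPKM and were tested, and 0 passed limma (0 also at an unadjusted p under 0.05), where 0.609% of all 27761 transcripts tested passed. The 10 others had means of at most 0.453 FPKM. In the authors' deposited table, 0 of the 19 have q under 0.05, where 3.81% of all its transcripts do. There 2 of the 19 have p under 0.05, those of Fos and Fosb named above. The share of all transcripts at that p was not taken, so this count has no background and is no result.

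The order of the levels was largely set within libraries. FPKM are per length, so genes can be set side by side. Neighbours in the order of mean FPKM were set side by side within each of the 6 libraries, as a description with no test, since the same levels set the order. Jund exceeded Jun, Jun exceeded Egr1, Egr1 exceeded Fosl1, Fosl1 exceeded Fos and Atf3 exceeded Fosb in 6 of 6 libraries. The geometric mean ratios were 1.34 for Jund to Jun, 1.65 for Jun to Egr1, 1.40 for Egr1 to Fosl1, 3.99 for Fosl1 to Fos and 4.29 for Atf3 to Fosb. The other neighbours were closer than the spread of their ratio over libraries. Junb exceeded Fosl2 in 5 of 6 libraries (mean log2 ratio 0.09, SD 0.18), Fosl2 exceeded Jund in 2 of 6 (0.04, SD 0.20) and Fos exceeded Atf3 in 5 of 6 (0.17, SD 0.41). Among all genes tested, Junb lay at the 85.0th percentile of mean level, Fosl2 at 83.98, Jund at 83.3, Jun at 77.3, Egr1 at 64.4, Fosl1 at 55.2, Fos at 24.2, Atf3 at 22.2 and Fosb at 0.369.

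The shares within each family differed between the groups by less than the larger of their SDs. Summed Fos family FPKM were 41.5, 55.7 and 40.3 in cKO 1 to 3, against 38.6, 40.8 and 42.2 in control 1 to 3, with cKO 2 alone standing apart, as it did for Fosl2. Fosl2 made up 69.9 ± 1.61% of that sum in cKO and 71.7 ± 3.64% in control, Fosl1 22.8 ± 1.05% in cKO and 21.96 ± 3.61% in control, and Fos 6.01 ± 0.580% in cKO and 5.28 ± 1.05% in control (SD, n = 3). Fosb never exceeded 1.53%. In every library Fosl2 and Fosl1 made up most of the Fos family RNA.

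Summed Jun family FPKM were 84.1, 88.5 and 86.2 in cKO 1 to 3, against 79.96, 80.7 and 84.98 in control 1 to 3. Junb made up 38.8 ± 0.725% in cKO and 38.3 ± 1.07% in control, Jund 35.6 ± 1.82% in cKO and 34.8 ± 1.29% in control, and Jun 25.7 ± 2.32% in cKO and 26.96 ± 0.375% in control (SD, n = 3). The lowest Jun share, 22.98%, was in cKO 3, where Jund had its highest share. Jun family FPKM exceeded Fos family FPKM 1.92 ± 0.292 times in cKO and 2.02 ± 0.046 times in control, the lowest ratio being 1.59 in cKO 2. These sums are given with no test.

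**Figure D3:**
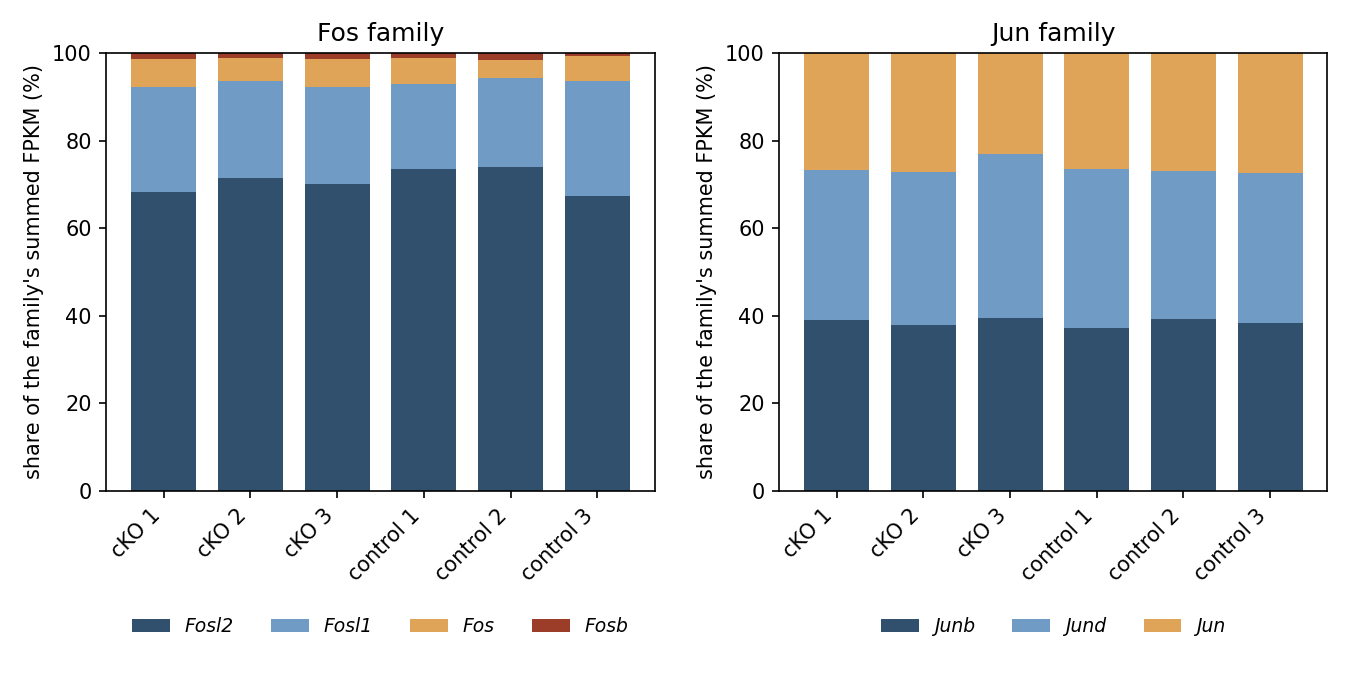
Share of each gene in the summed FPKM of the Fos family (left) and the Jun family (right), in percent, for cKO 1 to 3 and control 1 to 3. Fosl2 holds between 67.4 and 73.9% of the Fos family in every library, and the 3 Jun genes keep their order in each.

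The gene closest to a call, Fos, was used to look for similar patterns. Over the 6 libraries, among 8213 other genes that averaged 5 FPKM or more, the highest Pearson correlations of log2(FPKM + 0.5) with Fos were 0.991 for Fzr1, 0.987 for Atad3a and 0.982 for Ubqln4. Fzr1, an activator of the anaphase-promoting complex, averaged 14.6 ± 0.413 FPKM in cKO and 13.4 ± 0.842 FPKM in control (SD, n = 3), and it was likewise lowest in control 2. All 3 genes share with Fos that low value, and none passed limma (adjusted p = 0.294, 0.204 and 0.284). With 6 libraries and so many genes, high correlations are common, and these are given as a description.

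Other genes of the AP-1 network were read from 6 lists, whose counts stand against the 7.6% of all genes tested that were higher and the 4.57% that were lower. Of 30 tested immediate early genes other than the 9, 6 rose, 2 fell and 22 did not pass, with a median log2 change of 0.18 against 0.05 over all genes tested. Rnd3, a small GTPase that opposes RhoA, stood at 64.1, 66.5 and 72.01 FPKM in cKO 1 to 3, against 50.1, 41.8 and 42.9 FPKM in control 1 to 3 (log2 change 0.59, SE 0.084, limma adjusted p = 0.00514), with the groups apart. Klf6, a zinc finger factor, rose to 50.04 ± 6.67 FPKM in cKO, against 34.1 ± 0.502 FPKM in control (SD, n = 3), and Dusp5, a nuclear phosphatase of ERK, to 12.7 ± 0.965 FPKM in cKO, against 8.62 ± 0.816 FPKM in control (limma adjusted p = 0.0109 and 0.0112). Btg2, an antiproliferative gene, rose (log2 change 0.48), while the related Btg1 fell to 16.7 ± 1.29 FPKM in cKO, against 23.1 ± 0.845 FPKM in control (adjusted p = 0.0195 and 0.0085). Past the test but outside the naming rule, and so named after their values were seen, were Zfp36l2, an mRNA decay factor, and Ccn1, a matricellular protein, both higher (log2 change 0.32 and 0.53), and Nr4a2, an orphan nuclear receptor, lower (-0.72). Klf6 did not pass without control 2 (limma adjusted p = 0.0509) and Dusp5 likewise (0.0544). Btg2 did not pass without any 1 control or cKO 3 (0.0520 to 0.0772), Nr4a2 without cKO 1, control 1 or control 2 (0.0539 to 0.0788), and Zfp36l2 when cKO 1 or 2 or control 1 or 2 was left out (0.0504 to 0.0978). Leaving out cKO 2 or 3 or any control ended the call of Ccn1 (0.0585 to 0.119), as did 6 other alternatives, among them no filter (0.13), quantile normalization (0.0608), median-of-ratios scaling (0.0565) and the Xist covariate (0.0540). Zfp36l2 was also lost in 4 others (0.0573 to 0.0621), and Klf6, Btg2 and Nr4a2 without a filter (0.0541, 0.0676 and 0.0850).

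Among other bZIP genes, which encode possible dimer partners, 0 of 25 rose, 2 fell and 23 missed the threshold, with a median of 0.04. Cebpb, a C/EBP factor active in chondrocytes under inflammatory signals, stood at 19.2, 21.9 and 20.04 FPKM in cKO 1 to 3, against 27.2, 31.2 and 31.2 FPKM in control 1 to 3 (log2 change -0.54, SE 0.080, limma adjusted p = 0.00607).

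Of 24 tested kinases of the ERK, JNK and p38 routes, 1 rose, 1 fell and 22 did not pass (median 0.07), which is near the share over all genes, 7.6% higher and 4.57% lower. Map3k5, the stress kinase ASK1, stood at 2.21, 1.79 and 1.87 FPKM in cKO 1 to 3, against 3.89, 3.96 and 4.001 FPKM in control 1 to 3 (log2 change -0.86, SE 0.11, limma adjusted p = 0.00276), with the groups well apart. Map2k3, a kinase that activates p38, rose to 78.1 ± 5.99 FPKM in cKO, against 61.2 ± 2.71 FPKM in control (SD, n = 3; adjusted p = 0.0203), and did not pass with coding transcripts alone (log2 change 0.28, adjusted p = 0.241), without control 1 or 2 (0.0826 and 0.0871), without a filter (0.0632) or without a trend (0.0540). Of 8 tested cofactors of SRF and EGR1, 0 passed limma (median 0.08). The smallest p were those of Nab2, a corepressor and known target of EGR1, at 38.9 ± 1.11 FPKM in cKO and 34.7 ± 1.64 FPKM in control, and of Elk3, a ternary complex factor, at 24.1 ± 1.61 FPKM in cKO and 20.6 ± 1.96 FPKM in control (adjusted p = 0.122 and 0.135).

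Of 25 textbook AP-1 target genes measured above the filter, Fosl1 among them, 3 rose, 4 fell and 18 missed the threshold, with a median of 0.13, where 7.6% of all genes tested were higher and 4.57% lower. Plaur, the urokinase receptor, stood at 100.4, 119 and 119.6 FPKM in cKO 1 to 3, against 67.9, 70.1 and 74.3 FPKM in control 1 to 3 (log2 change 0.67, SE 0.082, limma adjusted p = 0.00266). Mmp3, the protease stromelysin, stood at 8.81, 17.8 and 8.99 FPKM in cKO 1 to 3, against 39.04, 63.4 and 45.6 FPKM in control 1 to 3 (log2 change -2.06, SE 0.27, adjusted p = 0.00372). Both sets of values are well apart, in opposite directions.

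Ezr, the membrane linker ezrin, rose, with a log2 change of 0.66 (limma adjusted p = 0.004). The metallothioneins Mt2 and Mt1, which bind zinc, fell to 84.95 ± 15.1 and 151 ± 22.5 FPKM in cKO, against 177 ± 37.4 and 259 ± 41.2 FPKM in control (SD, n = 3; adjusted p = 0.00971 and 0.0128). Il6, a cytokine named after its values were seen, was lower (log2 change -1.05). It was low throughout, at 0.110, 0.279 and 0.401 FPKM in cKO 1 to 3, against 0.872, 1.18 and 1.14 FPKM in control 1 to 3. The size of its change depended on the pseudocount, being -1.76 with 0.1 FPKM and -0.71 with 1 FPKM. Without control 2, Mt1 (limma adjusted p = 0.0608) and Il6 (0.0694) did not pass, and without a filter neither did Mt1 (0.0713), Mt2 (0.0618) or Il6 (0.0555).

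Of 21 tested genes of the integrated stress response, in which ATF3 acts downstream of ATF4, 4 rose, 1 fell and 16 did not pass (median 0.07), beside 7.6% higher and 4.57% lower over all genes. The gene that fell was Cebpb. Gadd45g, a growth arrest gene, stood at 34.6, 42.2 and 44.4 FPKM in cKO 1 to 3, against 27.1, 24.6 and 26.2 FPKM in control 1 to 3 (log2 change 0.62, SE 0.096, limma adjusted p = 0.00712). Nupr1, a stress-induced chromatin protein, rose to 59.2 ± 4.07 FPKM in cKO, against 43.5 ± 3.30 FPKM in control, and Ppp1r15a, the phosphatase subunit GADD34, to 11.4 ± 0.955 FPKM in cKO, against 8.32 ± 0.128 FPKM in control (SD, n = 3; adjusted p = 0.0116 and 0.0140). Phgdh, an enzyme of serine synthesis, rose (log2 change 0.24, adjusted p = 0.0415). Nupr1 did not pass without control 2 (0.0579), Ppp1r15a without control 1 (0.0564) or control 2 (0.0549). With coding transcripts alone Nupr1 did not pass either (0.184), nor without a filter (0.0506). The call of Phgdh ended in 12 of 18 alternatives, 5 that left out cKO 1, cKO 2 or a control (0.0755 to 0.145) and 7 others, among them quantile normalization (log2 change 0.14, adjusted p = 0.215), a TPM scale (0.0860) and median-of-ratios scaling (0.0820). The chondrocyte markers given above were lower in cKO in the same libraries, and their part in these list values was not tested.

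**Figure D4:**
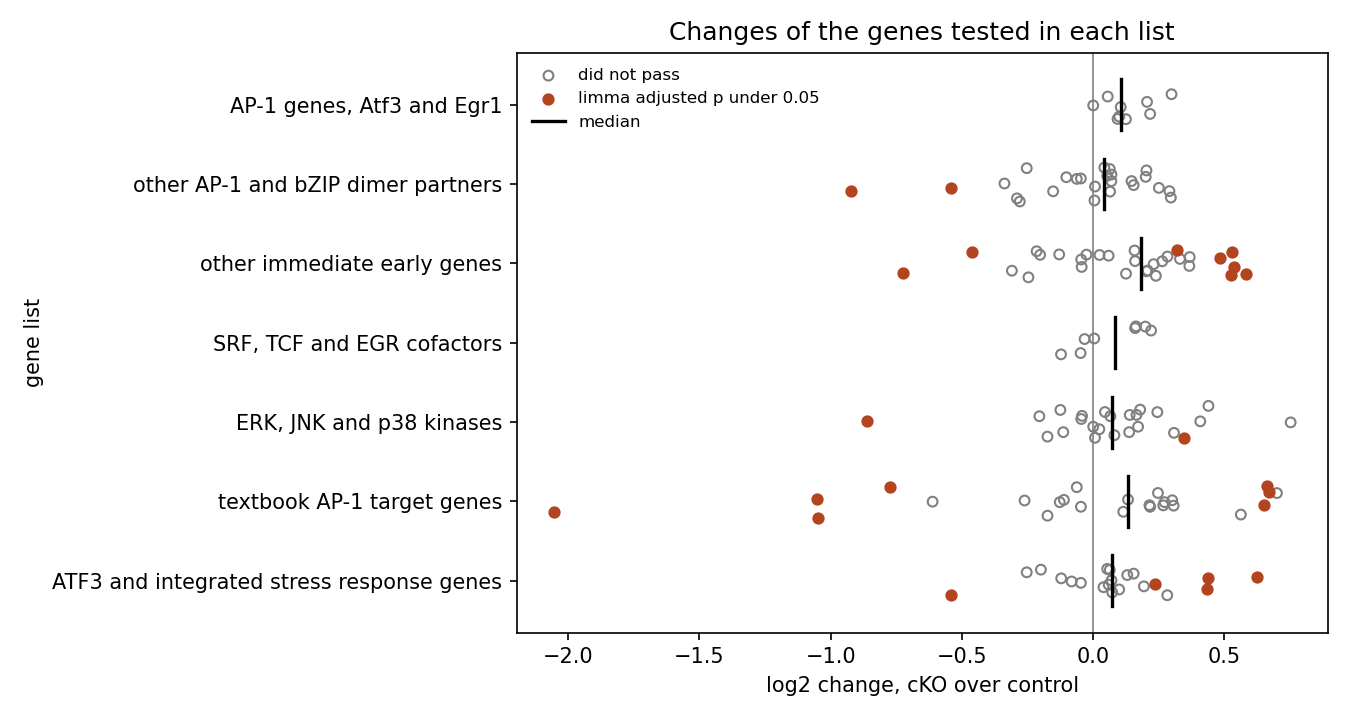
Log2 change, cKO over control, of every tested gene of the AP-1, ATF3 and EGR1 set (top row) and of 6 further lists, filled where limma's adjusted p was under 0.05, with list medians as bars. None of the 9 genes in the top row is filled, and the filled genes of the AP-1 target list lie on both sides of 0.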

How the data were processed

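RNA was measured in 3 cKO and 3 control libraries, grouped by sample title. Per the labels' protocols, 1.5 µg of Trizol RNA was fragmented, reverse transcribed and marked with dUTP. The authors deposited FPKM per Ensembl transcript and library, with their ratio (fold) and log2 ratio of group means and, from a test no header names, the authors' p-value and q-value. The build is mm10 per the submitters' processing notes, and the aligner is not given in the sources used here. Of the transcripts found in GENCODE M21, 99.7% have the same coordinates, all 19 described here among them. Depth is unknown: at the best step, 7.98 to 9.87% of low values lay within 0.02 of a whole fragment number, where 4% fall by the tolerance, so whole reads were not recovered. Between 12441 and 12697 genes reached 1 FPKM per library. Other columns held transcript length and exon number.

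FPKM were summed per symbol (46 symbols join several identifiers). Genes, and apart from them transcripts, with a mean of at least 0.5 FPKM were tested with limma 3.58.1 (R 4.3.3, mean-variance trend, 2-sided, no covariate, threshold 0.05), checked on simulated data. Level ratios were described with no test. The named genes were the 9 members, up to 5 genes past the test per list with the smallest p (or 2 where none passed) and the 3 genes most like Fos; some list genes are not reported here. The members and lists were chosen with earlier results of these data known. Alternatives covered pseudocount, filter, scaling, coding transcripts, a replicate block, Xist, the empirical Bayes settings and each library left out.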

Additional observations from a re-analysis of the deposited data

How the results depend on the processing

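None of the 9 genes passed limma in any of the 18 alternatives (lowest adjusted p 0.125, for Fos), nor did any of their transcripts in the 17 run on transcripts, and Fosb fell under the filter in 5 of the 18. Fos, Fosb, Fosl1, Junb and Jund stayed above 0 throughout. The log2 change of Jun was -0.049 with median-of-ratios scaling, -0.072 with quantile normalization and -0.034 on a TPM scale, and lay between -0.060 and 0.077 when 1 library was left out. That of Egr1 was -0.0024 with quantile normalization, and -0.0057 to 0.15 with 1 library left out. With 1 library left out Atf3 and its transcript lay between -0.023 and 0.22, Fosl2 between -0.037 and 0.21 and its main transcript between -0.035 and 0.21. Transcript fits turned for the Jun transcript ENSMUST00000107094 (-0.0022 with median-of-ratios scaling, -0.096 with quantile normalization, -0.034 on a TPM scale, -0.060 to 0.077 with 1 library left out), for ENSMUST00000064795 of Egr1 (-0.012) and ENSMUST00000064922 of Junb (-0.0077) with quantile normalization. The cause was not tested.

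Of all genes, 1713 passed, against 662 without a filter, 1134 without a trend, 1097 with the replicate block, and 537 (without control 2) to 1324 with 1 library left out. The higher share of calls was 62.5%, against 48.4% with median-of-ratios scaling, 47.5% with quantile normalization and 51.7% without a filter. Same-numbered libraries did not deviate together (r = -0.016, -0.056 and -0.046), and the other pairs lay between -0.046 and 0.095. With 3 libraries per group, this cannot settle whether the numbers pair them. List medians moved as follows: stress response genes 0.020 with median-of-ratios scaling, -0.0049 with quantile normalization and 0.042 to 0.12 with 1 library left out; kinases 0.13 with coding transcripts alone and 0.047 to 0.12; SRF cofactors 0.030 to 0.15; bZIP partners 0.012 on a TPM scale, -0.0013 with median-of-ratios scaling, -0.051 with quantile normalization and 0.013 to 0.044; immediate early genes 0.062 without a filter and 0.092 to 0.21; AP-1 targets 0.059 to 0.22. Of the 23 list genes past the test, 8 passed in every alternative, 14 did not without control 2 and 13 did not without a filter. Calls also appeared, for genes named after their values were seen. Mmp13 stood at 670, 251 and 791 FPKM in cKO 1 to 3, against 346, 372 and 321 FPKM in control 1 to 3. It passed without cKO 2 (limma adjusted p = 0.000901). Plau (0.0111), Jdp2 (0.0140), Mapk11 (0.0216), Ier3 (0.0260), Klf4 (0.0305) and Ccnd1 (0.0475) each passed with 1 library left out. Atf5 and Map2k7 passed in other alternatives. Unknown depth leaves low genes such as Fosb without a counting interval.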
